A study of Homo sapiens with 24 samples.

Results

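The transcripts of 50 genes of the mitotic spindle and the kinetochore were followed in 2 human osteosarcoma cell lines exposed to THZ2. The genes were chosen by name: subunits and regulators of the kinetochore, the spindle checkpoint, the chromosomal passenger complex, mitotic kinases and cyclins, kinesins, and proteins of spindle assembly and cytokinesis. Each was read from the probe sets that name it and no other gene, 119 probe sets in all. All 50 were measured and passed the filter on dim genes, among 16173 genes tested of 18132.

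SJSA-1 and U2-OS are established osteosarcoma lines, and no genotype beyond the line is given in the labels. THZ2 binds CDK7 covalently and inhibits it. CDK7 belongs to the transcription factor TFIIH, acts on the tail of RNA polymerase II, and also activates the cell cycle kinases. Each line received THZ2 at 25, 100 or 400 nM, or DMSO as the vehicle, for 6 h in medium with fetal bovine serum. Each of the 8 groups had 3 arrays, 24 in all, hybridised to Affymetrix PrimeView arrays. Whether the 3 arrays of a group came from separate cultures is not given, so p-values measure the spread between these arrays, which may be technical.

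The kinetochore is the protein assembly that joins a chromosome to spindle microtubules. Its inner layer sits on nucleosomes that carry CENP-A, and its outer layer, built around the Ndc80 complex, binds the microtubules and recruits the spindle checkpoint, which holds back the anaphase-promoting complex until every chromosome is attached. The chromosomal passenger complex with Aurora B corrects wrong attachments, kinesins move chromosomes and spindle poles, and most of these genes are transcribed from late S phase to mitosis through the DREAM, B-MYB and FOXM1 regulators. RNA was taken from whole cultures, so fewer cells in G2 or mitosis and less of a transcript per cell cannot be told apart.

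Values are the deposited intensities on a linear scale, 1 per array, from the brightest probe set of each gene, and are compared only within a gene. Changes are differences of log2(intensity + 16), with standard errors and Benjamini-Hochberg adjusted p-values from limma over all 16173 genes, and a change passed where the adjusted p was under 0.05. From identical values that arrays shared, the U2-OS arrays with 400 nM were taken as normalized apart from the other U2-OS arrays. The SJSA-1 arrays were taken as normalized apart from both. So in U2-OS cells at 400 nM dose and normalization cannot be told apart, nor can line and normalization in levels. Array medians ran between 23.4 and 25.5 in SJSA-1 cells, between 36.6 and 37.3 in U2-OS cells at 400 nM, and between 33.5 and 34.5 in the other U2-OS groups. The means of the poly-A spike-in controls, RNAs added in fixed amounts, ran in log2 units between 6.40 and 7.18 with DMSO, 7.31 and 7.46 at 100 nM, and 7.18 and 8.84 at 400 nM in SJSA-1 cells. In U2-OS cells they ran between 5.42 and 5.43 with DMSO, 5.88 and 5.95 at 100 nM, and 5.65 and 6.00 at 400 nM. Markers of bone and mesenchymal cells were all measured, 7 of 7, with a summed intensity of 11900 to 14900 per group. VIM alone read between 6610 and 8460, and RUNX2 between 22.2 and 173. COL1A2 lay under the filter's intensity in U2-OS cells with DMSO and at 25 and 100 nM, at 8.6, 9.31 and 11.2. NEFL, a nervous tissue marker, read between 418 and 621 in U2-OS cells. The sums add unlike probe sets and are a description only. Nervous tissue markers, 6 of 7 measured, summed to 111 to 886, blood markers, 5 of 6, to 99.5 to 164 with PTPRC under the filter's intensity in every group, and epithelial markers, 5 of 5, to 148 to 450. MDM2 and CDK4, which are amplified in SJSA-1, read 835 and 7560 in SJSA-1 cells with DMSO, against 87.1 and 1220 in U2-OS cells with DMSO. CDK7 itself, the target of THZ2, fell, with changes of -0.97 and -1.78 at 100 and 400 nM in SJSA-1 cells and of -0.28 and -2.03 in U2-OS cells.

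Most of the 50 genes were lower at 100 and 400 nM in both lines, and a minority were higher, in SJSA-1 cells mostly subunits of the inner kinetochore. In SJSA-1 cells 31 of the 50 fell and 5 rose at 100 nM, where 24.9% of all genes tested fell and 24.5% rose. At 400 nM 36 fell and 6 rose, against 24.9% and 41.6% of all genes. In U2-OS cells 28 fell and 2 rose at 100 nM, where 22.1% of all genes fell and 19.8% rose, and 26 fell and 11 rose at 400 nM, against 24.8% and 48.4%. Falls of at least 2-fold numbered 12 and 16 in SJSA-1 cells at 100 and 400 nM, and 10 and 13 in U2-OS cells, and no member rose 2-fold. Among all 16173 genes falls of that size numbered 972 and 1345 in SJSA-1 cells and 640 and 1090 in U2-OS cells. Rises of that size were few among all genes too, at 72 and 26 in SJSA-1 cells and 53 and 467 in U2-OS cells. The 5 rises in SJSA-1 cells at 100 nM were 8 without DMSO replicate 1 and 3 without 100 nM replicate 3, and the 2 in U2-OS cells at 100 nM were 1 without any single array other than 100 nM replicate 1.

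At 25 nM few of the genes moved. In SJSA-1 cells 6 fell and 2 rose, where 6.18% of all genes fell and 2% rose, and in U2-OS cells none passed in either direction, where 0.0556% and 0.0247% of all genes did; without the other groups in the fit 3 passed there. KNSTRN at -0.43 ± 0.083, AURKB at -0.51 ± 0.11, CENPI, SPC24, CCNB1 and CDC20 were the falls in SJSA-1 cells, and SGO2 and CENPN the rises. The count of 8 was 9 without DMSO replicate 1, 4 without DMSO replicate 2 or 3, 6, 5 and 3 without 25 nM replicates 1, 2 and 3, and 0 with arrays centred on the spike-ins. Of these 8, KNSTRN and AURKB passed whichever single array was left out.

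The median log2 change of the 50 genes lay below that of all genes tested at both higher doses. In SJSA-1 cells it was 0.0027 at 25 nM, -0.61 at 100 nM and -0.66 at 400 nM, beside 0.014, 0.057 and 0.10 for all genes. In U2-OS cells it was 0.040, -0.35 and -0.42, beside -0.0024, 0.058 and 0.15. The single genes ran between -2.79 and 0.73 in SJSA-1 cells at 100 nM and between -2.45 and 0.48 in U2-OS cells.

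The scaling of the arrays set how many rises passed. Centring each array on the spike-ins shifted the median of all genes to -0.39 and -0.84 in SJSA-1 cells at 100 and 400 nM and to -0.30 and -0.16 in U2-OS cells, where the medians of the 50 genes were -1.05, -1.61, -0.71 and -0.73. With that scaling 31 and 47 members fell in SJSA-1 cells and 27 and 26 in U2-OS cells, and none rose in any of the 4 comparisons. Centring on the array median shifted all genes to 0.24 and 0.30 in SJSA-1 cells and to 0.18 and 0.21 in U2-OS cells. The splits were then 28 lower and 9 higher, 31 and 7, 26 and 7, and 26 and 13. Among all genes they were 3044 lower and 10229 higher, 2993 and 10692, 2927 and 8602, and 3600 and 8800. Every rise of a member against DMSO reported here is relative to the deposited scaling, and none of them passed with the spike-ins.

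**Figure D1:**
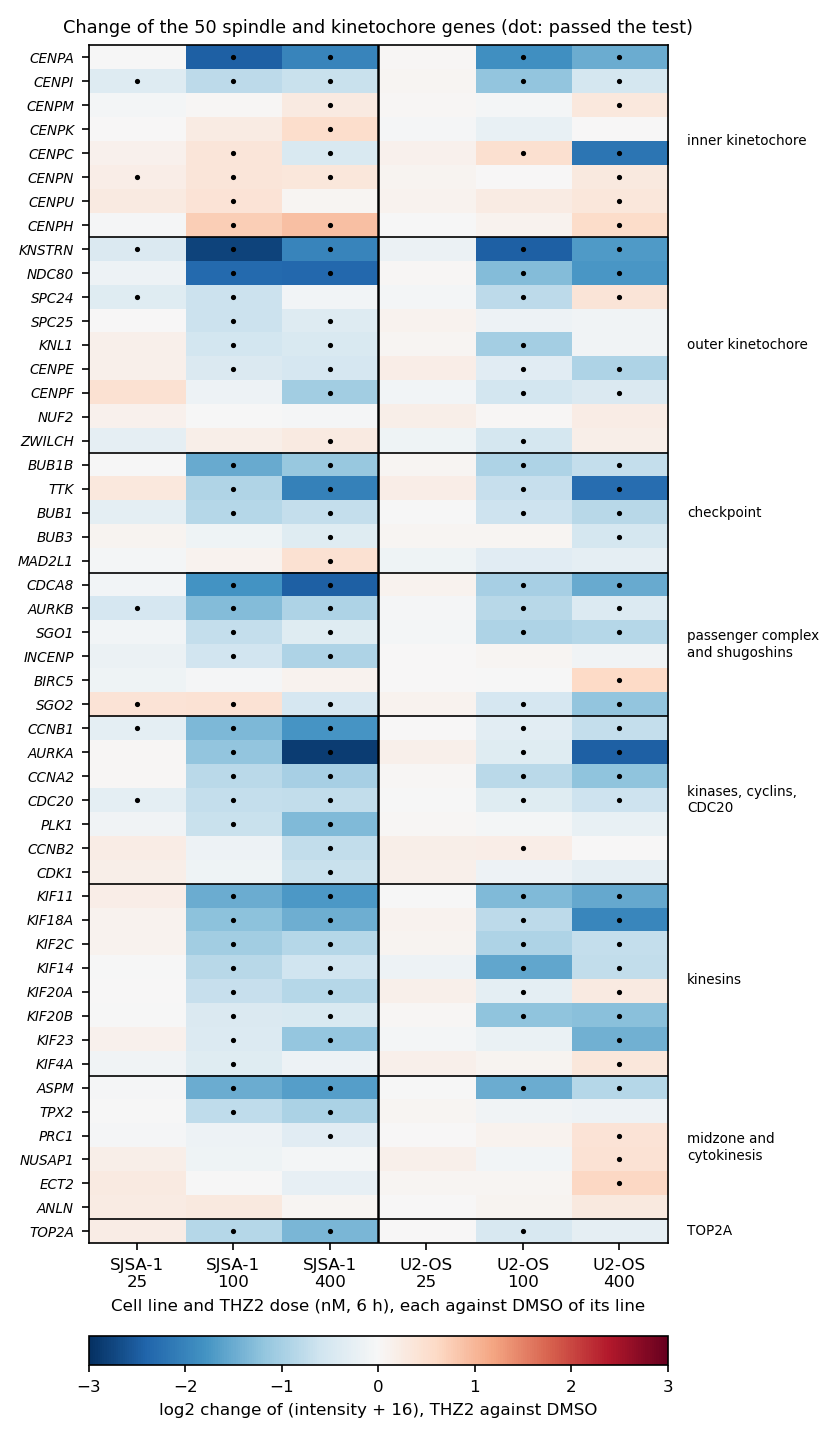
Log2 change of each of the 50 genes (rows, grouped by role) with 25, 100 and 400 nM THZ2 against DMSO, SJSA-1 cells to the left of U2-OS cells, with marks for adjusted p under 0.05. The columns at 100 and 400 nM are mostly lower, with 31 and 36 falls in SJSA-1 cells and 28 and 26 in U2-OS cells, and the inner kinetochore rows hold most of the rises at 100 nM in SJSA-1 cells.

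**Figure D2:**
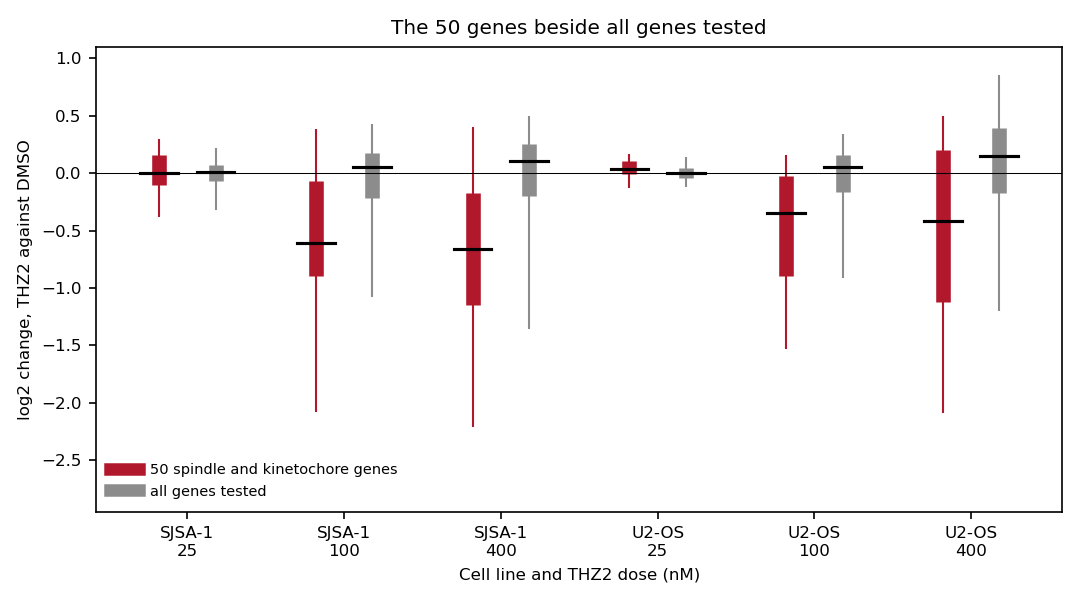
Spread of the log2 change over the 50 genes and over all 16173 genes tested, by line and dose; thin lines span the 5th to 95th percentile, bars the 25th to 75th, and the mark is the median. At 100 nM the medians were -0.61 for the 50 genes beside 0.057 for all genes in SJSA-1 cells, and -0.35 beside 0.058 in U2-OS cells.

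The inner kinetochore genes changed in both directions. CENPA, the histone H3 variant that marks the centromere, and CENPI, a subunit of the constitutive centromere network, fell, while other subunits of that network were higher or did not pass. Of the 8 genes, 2 fell and 4 rose in SJSA-1 cells at 100 nM and 3 fell and 4 rose at 400 nM. In U2-OS cells 2 fell and 1 rose at 100 nM and 3 fell and 4 rose at 400 nM. The 4 rises are 50% of the genes, beside 24.5% of all genes in SJSA-1 cells at 100 nM, but beside 41.6% in SJSA-1 cells and 48.4% in U2-OS cells at 400 nM, close to the share of the list. The falls are 25% of the genes in each line at 100 nM, near the 24.9% and 22.1% of all genes in SJSA-1 and U2-OS cells. At 400 nM the falls are 37.5% in each line, beside 24.9% and 24.8%. The median of the 8 genes was 0.31 and 0.17 in SJSA-1 cells and -0.024 and 0.15 in U2-OS cells. It turned to -0.14, -0.78 and -0.16 with the spike-ins at the 3 comparisons where it was above 0, and to 0.094 with median centring in U2-OS cells at 100 nM.

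In SJSA-1 cells CENPA read 942, 942 and 976 with DMSO, 962, 891 and 976 at 25 nM, 140.1, 189 and 155 at 100 nM and 246, 252 and 190 at 400 nM. In U2-OS cells CENPA read 1285, 1297 and 1338 with DMSO, 1423, 1320 and 1273 at 25 nM, 332, 366 and 367 at 100 nM and 497, 497 and 383 at 400 nM. In both lines every array at 100 and 400 nM lay far below every array with DMSO, and the arrays at 25 nM stood among the DMSO arrays or close to them. The fall was -2.46 ± 0.10 at 100 nM and -1.99 ± 0.10 at 400 nM in SJSA-1 cells (adjusted p = 3.7e-17 and 1.0e-15). For CENPA in U2-OS cells it was -1.83 ± 0.10 and -1.49 ± 0.10 (adjusted p = 2.1e-14 and 5.2e-13).

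CENPC, the scaffold that links CENP-A nucleosomes to the outer kinetochore, went in opposite directions at the upper doses. SJSA-1 cells held little of it, 13.1, 9.71 and 10.6 with DMSO, 17.3, 9.06 and 14.5 at 25 nM, 13.6, 17.5 and 26.5 at 100 nM and 4.96, 3.18 and 2.95 at 400 nM, and its DMSO mean of 11.1 lay under the filter's intensity of 12.73. The rise at 100 nM in SJSA-1 cells was at least 1.5-fold, and it was lost without 100 nM replicate 3 at 0.22 and turned to -0.081 with the spike-ins. In U2-OS cells CENPC read 160, 158 and 157 with DMSO, 168, 181 and 179 at 25 nM, 211, 243 and 228 at 100 nM and 15.8, 22.2 and 29.8 at 400 nM. The 100 nM arrays there were the highest of the line and the 400 nM arrays the lowest, with no overlap between groups, a change of 0.48 ± 0.12 at 100 nM and -2.19 ± 0.12 at 400 nM (adjusted p = 1.8e-15). That rise at 100 nM was 0.12 and did not pass with the spike-ins.

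CENPH, another subunit of the centromere network, was the member with the largest rise at 100 nM in SJSA-1 cells. In SJSA-1 cells CENPH read 108, 90.5 and 121 with DMSO, 98.4, 100.4 and 112 at 25 nM, 179.8, 172 and 208 at 100 nM and 254, 201 and 190 at 400 nM. In U2-OS cells CENPH read 253, 262 and 256 with DMSO, 262, 241 and 267 at 25 nM, 274, 279.8 and 283 at 100 nM and 359, 391 and 397 at 400 nM. The 100 and 400 nM arrays of SJSA-1 cells lay above all DMSO arrays, and in U2-OS cells the 400 nM arrays did so clearly. The changes were 0.73 ± 0.099 and 0.91 ± 0.099 in SJSA-1 cells, 0.11 ± 0.099 in U2-OS cells at 100 nM, which did not pass, and 0.55 ± 0.099 at 400 nM. With the spike-ins they were 0.29 and -0.030 in SJSA-1 cells and 0.23 at 400 nM in U2-OS cells, none passing.

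The remaining inner subunits changed less than CENPA at 100 and 400 nM. CENPN, which reads CENP-A nucleosomes, was 0.37 and 0.34 in SJSA-1 cells at 100 and 400 nM and 0.30 in U2-OS cells at 400 nM, all passing. The mean of its probe sets turned these to -0.35, -0.17 and -0.15 and the spike-ins to -0.074, -0.60 and -0.013. Of the 6 probe sets of CENPN fitted singly, 4 passed as lower and 1 as higher at 100 nM in each line. At 400 nM 3 were lower and 1 higher in SJSA-1 cells, and 3 lower and 2 higher in U2-OS cells. CENPI was at least 2.07-fold lower in SJSA-1 cells at both doses, where its treated means lay under the filter's intensity. In U2-OS cells it fell, with changes of -1.19 and -0.52 at 100 and 400 nM, the second lost with the mean of its probe sets at -0.093. CENPK was 0.52 in SJSA-1 cells at 400 nM, turning to -0.43 with the spike-ins, and 0.0078 without passing in U2-OS cells. CENPM and CENPU gave small rises that depended on single arrays or on the scaling. CENPM was 0.26 in SJSA-1 cells at 400 nM and lost its call without DMSO replicate 1 at 0.13 and without 400 nM replicates 1 and 2 at 0.25 and 0.14. CENPU was 0.40 in SJSA-1 cells at 100 nM and lost it without DMSO replicate 2 at 0.25 and without 100 nM replicate 3 at 0.22. In U2-OS cells at 400 nM CENPM was 0.32 and CENPU 0.33, the second lost without DMSO replicate 1 at 0.29 or 400 nM replicate 3 at 0.28. Both rises in U2-OS cells were lost with ribosomal centring at 0.21 and 0.23, with joint quantile normalization at 0.19 each and with the spike-ins at 0.0045 and 0.019.

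The outer kinetochore was mostly lower, and unevenly so. Of 9 genes, 6 fell and none rose in SJSA-1 cells at 100 nM and 6 fell and 1 rose at 400 nM, while in U2-OS cells 7 fell and none rose at 100 nM and 4 fell and 1 rose at 400 nM. The falls are 66.7% of the genes at each dose in SJSA-1 cells, beside 24.9% of all genes at each. In U2-OS cells they are 77.8% and 44.4%, beside 22.1% and 24.8%. The rises at 400 nM are 11.1% in each line, beside 41.6% and 48.4% of all genes in SJSA-1 and U2-OS cells. The median of the 9 genes was -0.54 and -0.45 in SJSA-1 cells and -0.55 and -0.11 in U2-OS cells, below 0 with all 4 other scalings. KNSTRN, which encodes a protein of kinetochores and spindle microtubules, and NDC80, the microtubule-binding subunit of the Ndc80 complex, changed most.

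In SJSA-1 cells KNSTRN read 879, 755 and 787 with DMSO, 605, 596 and 584 at 25 nM, 97.0, 108 and 104 at 100 nM and 201, 197 and 182 at 400 nM. In U2-OS cells KNSTRN read 632, 645 and 616 with DMSO, 568, 556 and 556 at 25 nM, 97.7, 118 and 92.8 at 100 nM and 183, 199 and 169.5 at 400 nM. The 100 nM arrays were the lowest in both lines, the 400 nM arrays came between them and DMSO, and in SJSA-1 cells the 25 nM arrays also lay below all DMSO arrays. At 100 nM the change was -2.79 ± 0.083 in SJSA-1 cells (adjusted p = 5.5e-20) and -2.45 ± 0.083 in U2-OS cells (adjusted p = 5.6e-19), the largest fall in either line at that dose among members at or above the filter's intensity with and without THZ2. At 400 nM it was -1.97 ± 0.083 and -1.70 ± 0.083.

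In SJSA-1 cells NDC80 read 538, 338 and 471 with DMSO, 419, 333 and 446 at 25 nM, 56.9, 88.0 and 83.3 at 100 nM and 61.8, 95 and 66.3 at 400 nM. In U2-OS cells NDC80 read 583, 650.3 and 591 with DMSO, 597, 655 and 629 at 25 nM, 227, 256 and 227 at 100 nM and 163, 181 and 165 at 400 nM. All treated arrays at 100 and 400 nM lay below all DMSO arrays, by a wider gap in SJSA-1 cells. The change was -2.33 ± 0.14 and -2.36 ± 0.14 in SJSA-1 cells (adjusted p = 9.0e-14 and 3.7e-14). For NDC80 in U2-OS cells it was -1.30 ± 0.14 and -1.75 ± 0.14 (adjusted p = 1.6e-08 and 1.8e-11).

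The partners of NDC80 in the 4-subunit complex differed among themselves. NUF2 was -0.0048 and -0.025 in SJSA-1 cells and 0.038 and 0.21 in U2-OS cells at 100 and 400 nM, none passing. SPC25 was -0.64 and -0.40 in SJSA-1 cells, both passing, the second lost without DMSO replicate 3 at -0.30 or 400 nM replicate 3 at -0.19, and -0.16 and -0.11 in U2-OS cells, neither passing. SPC24 was -0.65 and -0.79 at 100 nM in SJSA-1 and U2-OS cells, but -0.083 and 0.39 at 400 nM, the first not passing and the second a rise. Of its 5 probe sets, 3 passed as higher in SJSA-1 cells at 400 nM, up to 0.33. Both falls at 100 nM lost their call with the mean of its probe sets, at -0.073 and -0.13.

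KNL1, the scaffold that recruits the BUB proteins, was -0.54 and -0.45 in SJSA-1 cells and -1.01 in U2-OS cells at 100 nM, all passing, and -0.094 at 400 nM in U2-OS cells, not passing. Of its 3 probe sets that passed the filter, 1 was higher and passed in U2-OS cells at 400 nM, at 0.65. The call at 100 nM in SJSA-1 cells was lost with the mean of its probe sets at -0.22, and that at 400 nM without DMSO replicate 1 at -0.32. CENPE, a kinesin of the outer kinetochore, was -0.43 and -0.51 in SJSA-1 cells and -0.33 and -0.93 in U2-OS cells. Its calls at 100 nM were weak: that in SJSA-1 cells was lost without 100 nM replicate 1 at -0.30, and that in U2-OS cells without any one of 5 of the 6 arrays, at -0.30 to -0.35. CENPF, a large coiled-coil protein of the kinetochore, was -1.04 in SJSA-1 cells at 400 nM. In U2-OS cells CENPF was -0.55 at 100 nM, or -0.45 and not passing without 100 nM replicate 1, and -0.42 at 400 nM, or -0.35 without DMSO replicate 1 and -0.32 without 400 nM replicate 1, neither passing. ZWILCH, a subunit of the RZZ complex that brings dynein and checkpoint proteins to the kinetochore, was -0.52 in U2-OS cells at 100 nM and 0.27 in SJSA-1 cells at 400 nM. The rise was lost without any one of 4 arrays, DMSO replicates 2 and 3 and 400 nM replicates 2 and 3, at 0.21 to 0.23, and turned to -0.67 with the spike-ins.

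Of the 5 spindle checkpoint genes, 3 fell in each line at 100 nM, namely TTK, BUB1 and BUB1B, and none rose. At 400 nM 4 fell in each line, with BUB3, and MAD2L1 rose in SJSA-1 cells. The falls are 60% of the genes in each line at 100 nM, beside 24.9% and 22.1% of all genes in SJSA-1 and U2-OS cells. At 400 nM they are 80%, beside 24.9% and 24.8%. The rise is 20%, beside 41.6% of all genes. The median of the 5 genes was -0.86 and -0.72 in SJSA-1 cells and -0.61 and -0.72 in U2-OS cells, below 0 with all 4 other scalings.

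TTK is the kinase MPS1 that starts checkpoint signalling. In SJSA-1 cells TTK read 181, 129.8 and 159 with DMSO, 228, 149 and 221 at 25 nM, 59.7, 76.6 and 93.0 at 100 nM and 18.9, 34.3 and 25.8 at 400 nM. In U2-OS cells TTK read 384, 416 and 414 with DMSO, 421, 474 and 502 at 25 nM, 241, 246 and 243 at 100 nM and 55.5, 94.7 and 66.1 at 400 nM. The arrays fell in 2 steps, with the 100 nM arrays below the DMSO arrays and the 400 nM arrays below the 100 nM arrays, without overlap. The change was -0.90 ± 0.16 and -2.03 ± 0.16 in SJSA-1 cells (adjusted p = 2.1e-05 and 6.0e-12). For TTK in U2-OS cells it was -0.70 ± 0.16 and -2.28 ± 0.16 (adjusted p = 6.7e-04 and 4.2e-13).

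BUB1B encodes the checkpoint inhibitor BUBR1. In SJSA-1 cells BUB1B read 671, 488 and 474 with DMSO, 541, 516 and 545 at 25 nM, 159, 190 and 191 at 100 nM and 223, 232 and 254 at 400 nM. In U2-OS cells BUB1B read 331, 356 and 326 with DMSO, 337, 340.2 and 376 at 25 nM, 170.3, 175 and 169 at 100 nM and 204, 195 and 197 at 400 nM. In both lines the 100 nM arrays were the lowest and the 400 nM arrays stood above them and below DMSO. The changes were -1.5 ± 0.098 and -1.14 ± 0.098 in SJSA-1 cells and -0.92 ± 0.098 and -0.72 ± 0.098 in U2-OS cells. BUB1 is the kinase that phosphorylates centromeric histone H2A. In SJSA-1 cells BUB1 read 296, 221 and 242 with DMSO, 219.8, 174 and 214 at 25 nM, 123, 129.8 and 143 at 100 nM and 138, 144 and 158 at 400 nM. In U2-OS cells BUB1 read 486, 532 and 487 with DMSO, 495, 510.3 and 493 at 25 nM, 344, 320.4 and 305 at 100 nM and 249, 294 and 278 at 400 nM. Its treated arrays at both doses lay below all DMSO arrays, and the change was -0.86 ± 0.098 and -0.72 ± 0.098 in SJSA-1 cells and -0.61 ± 0.098 and -0.84 ± 0.098 in U2-OS cells.

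BUB3, the adaptor of both BUB proteins, fell at 400 nM. Its change was -0.35 in SJSA-1 cells, a call lost with median centring at -0.16, and -0.52 in U2-OS cells. At 100 nM it did not pass in either line, although 1 of its 3 probe sets was lower in SJSA-1 cells, at -0.37. MAD2L1, which encodes the checkpoint effector MAD2, rose by 0.46 in SJSA-1 cells at 400 nM, but was 0.28 and did not pass without DMSO replicate 2, and turned to -0.49 with the spike-ins. In U2-OS cells MAD2L1 was -0.34 and -0.27 at 100 and 400 nM, neither passing. Fitted singly, 1 of its 4 probe sets passed there as lower at 100 nM and 1 as higher at 400 nM, at 0.19.

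The chromosomal passenger complex and the shugoshins, which protect centromeric cohesion, came next, with 4 of 6 genes lower and 1 higher in SJSA-1 cells at 100 nM and 5 lower and none higher at 400 nM. In U2-OS cells 4 fell and none rose at 100 nM, and 4 fell and 1 rose at 400 nM. The falls are 66.7% and 83.3% of the genes in SJSA-1 cells, beside 24.9% of all genes at each dose. In U2-OS cells they are 66.7% at each dose, beside 22.1% and 24.8%. The rises are 16.7% of the genes, beside 24.5% of all genes in SJSA-1 cells at 100 nM and 48.4% in U2-OS cells at 400 nM. The median of the 6 genes was -0.64 and -0.72 in SJSA-1 cells and -0.67 and -0.63 in U2-OS cells, below 0 with all 4 other scalings.

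CDCA8 encodes the targeting subunit Borealin. In SJSA-1 cells CDCA8 read 644, 724 and 714 with DMSO, 639, 617 and 695 at 25 nM, 159, 252 and 169 at 100 nM and 136, 102 and 108 at 400 nM. In U2-OS cells CDCA8 read 288, 301 and 285 with DMSO, 317, 318 and 307 at 25 nM, 124, 148 and 139.8 at 100 nM and 78.6, 102 and 95.7 at 400 nM. The groups at DMSO, 100 and 400 nM did not overlap in either line and fell in that order. The change was -1.79 ± 0.12 and -2.44 ± 0.12 in SJSA-1 cells (adjusted p = 5.9e-13 and 3.8e-16). For CDCA8 in U2-OS cells it was -1.0 ± 0.12 and -1.51 ± 0.12 (adjusted p = 7.8e-08 and 9.8e-12).

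AURKB is the kinase of the complex. In SJSA-1 cells AURKB read 333, 452 and 455 with DMSO, 292, 284 and 272 at 25 nM, 145, 168 and 159.8 at 100 nM and 209, 249 and 168 at 400 nM. In U2-OS cells AURKB read 239, 234 and 249 with DMSO, 221, 237 and 241 at 25 nM, 116, 129 and 138 at 100 nM and 174, 179 and 177 at 400 nM. As for BUB1B, the 100 nM arrays were the lowest, and the 400 nM arrays stood between them and DMSO apart from 1 SJSA-1 array level with the 100 nM arrays. In SJSA-1 cells the 25 nM arrays too lay below all DMSO arrays. The change was -1.30 ± 0.11 and -0.94 ± 0.11 in SJSA-1 cells and -0.84 ± 0.11 and -0.41 ± 0.11 in U2-OS cells. INCENP, the scaffold of the complex, fell, with changes of -0.58 and -0.93 in SJSA-1 cells, and in U2-OS cells it was 0.057 and -0.11 without passing. Its other probe set passed as lower in U2-OS cells at 400 nM, at -0.31. BIRC5, which encodes survivin, was -0.046 and 0.10 in SJSA-1 cells and -0.0087 in U2-OS cells at 100 nM, none passing, and rose by 0.60 in U2-OS cells at 400 nM, or 0.29 without passing with the spike-ins. Of its 11 probe sets that passed the filter, 1 was higher in each line at 100 nM. At 400 nM 3 were higher in SJSA-1 cells, up to 0.44, and in U2-OS cells 5 were higher and 1 lower.

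The shugoshins parted in SJSA-1 cells. SGO1 fell, with changes of -0.71 and -0.37 there, the second lost with median centring at -0.17, and -0.92 and -0.85 in U2-OS cells. In SJSA-1 cells SGO2 read 38.9, 40.2 and 44.3 with DMSO, 69.5, 44.6 and 66.3 at 25 nM, 49.5, 65.8 and 68.1 at 100 nM and 20.4, 22.0 and 30.7 at 400 nM. In U2-OS cells SGO2 read 359, 358 and 353 with DMSO, 345, 417 and 402 at 25 nM, 219, 268 and 255 at 100 nM and 132, 167 and 145 at 400 nM. The 100 nM arrays of SJSA-1 cells stood above the DMSO arrays and the 400 nM arrays below them, whereas the 100 nM arrays of U2-OS cells lay below DMSO and the 400 nM arrays lower still. The change was 0.43 ± 0.12 and -0.51 ± 0.12 in SJSA-1 cells, where the rise at 100 nM was lost at 0.015 with the mean of its probe sets and turned to -0.019 with the spike-ins. For SGO2 in U2-OS cells it was -0.51 ± 0.12 and -1.19 ± 0.12.

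The mitotic kinases, the cyclins and CDC20, which activates the anaphase-promoting complex, were mostly lower. In SJSA-1 cells 5 of 7 fell at 100 nM and all 7 at 400 nM, and none rose. In U2-OS cells 4 fell at each of these doses and 1, CCNB2, rose at 100 nM. The falls are 71.4% and 100% of the genes in SJSA-1 cells, beside 24.9% of all genes at each dose. In U2-OS cells they are 57.1% at each dose, beside 22.1% and 24.8%. The rise is 14.3%, beside 19.8% of all genes. The median of the 7 genes was -0.72 and -1.01 in SJSA-1 cells and -0.31 and -0.61 in U2-OS cells, below 0 with all 4 other scalings.

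AURKA encodes the spindle pole kinase Aurora A. In SJSA-1 cells AURKA read 2165, 2210 and 1859 with DMSO, 1992, 2304 and 2062 at 25 nM, 826, 1136 and 771 at 100 nM and 294, 278 and 249 at 400 nM. In U2-OS cells AURKA read 736, 752 and 746 with DMSO, 820.2, 832 and 822 at 25 nM, 593, 546 and 593 at 100 nM and 107, 131 and 136 at 400 nM. On the log2 scale most of the fall came between 100 and 400 nM, and no treated array at these doses overlapped DMSO. The change was -1.19 ± 0.11 and -2.85 ± 0.11 in SJSA-1 cells (adjusted p = 1.7e-10 and 1.1e-18). For AURKA in U2-OS cells it was -0.36 ± 0.11 and -2.44 ± 0.11 (adjusted p = 0.0074 and 2.5e-17), the largest fall at 400 nM in both lines among members at or above the filter's intensity with and without THZ2.

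CCNB1 encodes cyclin B1, the partner of CDK1 at the entry into mitosis. In SJSA-1 cells CCNB1 read 1342, 1361 and 1168 with DMSO, 1046, 1024 and 1082 at 25 nM, 443, 530.1 and 530.1 at 100 nM and 404, 338 and 352 at 400 nM. In U2-OS cells CCNB1 read 1786, 1861 and 1807 with DMSO, 1835, 1856 and 1819 at 25 nM, 1435, 1497 and 1465 at 100 nM and 1088, 1122 and 1076 at 400 nM. The arrays fell with dose without overlap from 100 nM up in both lines, further in SJSA-1 cells, where the 25 nM arrays also lay below the DMSO arrays. The change was -0.29 ± 0.073, -1.34 ± 0.073 and -1.78 ± 0.073 in SJSA-1 cells, the first lost without DMSO replicate 2 at -0.25, and -0.31 ± 0.073 and -0.72 ± 0.073 in U2-OS cells at the upper doses. CCNB2 encodes cyclin B2. In SJSA-1 cells CCNB2 read 885, 916 and 755 with DMSO, 982, 1038 and 976 at 25 nM, 714, 867 and 699 at 100 nM and 495, 508 and 498 at 400 nM. In U2-OS cells CCNB2 read 970.4, 947 and 949 with DMSO, 1081, 1090 and 1073 at 25 nM, 1066, 1120 and 1121 at 100 nM and 912, 1010 and 968 at 400 nM. Its 400 nM arrays in SJSA-1 cells lay well below the rest, and in U2-OS cells all groups stayed between 912 and 1121. CCNB2 was -0.16 ± 0.076, not passing, and -0.74 ± 0.076 in SJSA-1 cells. In U2-OS cells it was 0.20 ± 0.076 at 100 nM, lost without any one of 5 of the 6 arrays at 0.19 to 0.21 and turned to -0.16 with the spike-ins, and 0.011 at 400 nM, not passing.

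CCNA2 encodes cyclin A2 of S and G2 phase. In SJSA-1 cells CCNA2 read 724, 502 and 635 with DMSO, 657, 560.3 and 685 at 25 nM, 296, 340.1 and 402 at 100 nM and 300.2, 304 and 288 at 400 nM. In U2-OS cells CCNA2 read 424, 479.7 and 449 with DMSO, 454, 493 and 434 at 25 nM, 266, 253 and 235 at 100 nM and 169, 203 and 189 at 400 nM. All arrays at 100 and 400 nM lay below DMSO, with changes of -0.81 ± 0.11 and -1.0 ± 0.11 in SJSA-1 cells and -0.81 ± 0.11 and -1.2 ± 0.11 in U2-OS cells. CDK1 is the kinase that B cyclins switch on. In SJSA-1 cells CDK1 read 949, 580 and 832 with DMSO, 976, 781 and 879 at 25 nM, 635, 671 and 832 at 100 nM and 410.1, 568 and 478 at 400 nM. In U2-OS cells CDK1 read 1081, 1240 and 1184 with DMSO, 1217, 1327 and 1327 at 25 nM, 1085, 1032 and 1047 at 100 nM and 929, 994 and 990.5 at 400 nM. Its DMSO arrays in SJSA-1 cells spread widely, and only the 400 nM arrays there lay below all of them, a change of -0.66 ± 0.13. In U2-OS cells CDK1 was -0.14 ± 0.13 and -0.26 ± 0.13, neither passing. Of its 2 probe sets that passed the filter, the other was lower and passed in U2-OS cells at 400 nM, at -0.91.

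PLK1 is a kinase of spindle assembly and mitotic exit. In SJSA-1 cells PLK1 read 155, 221 and 202 with DMSO, 167, 186 and 178 at 25 nM, 99.0, 145 and 102 at 100 nM and 70.5, 77.7 and 53.1 at 400 nM. In U2-OS cells PLK1 read 91.2, 88.9 and 89.6 with DMSO, 87.9, 96.4 and 93.8 at 25 nM, 81.9, 79.3 and 94.8 at 100 nM and 73.8, 73.8 and 76.1 at 400 nM. SJSA-1 arrays at 100 and 400 nM lay below all DMSO arrays, whereas the U2-OS arrays at 100 nM overlapped DMSO and those at 400 nM lay a little below. The change was -0.67 ± 0.12 and -1.33 ± 0.12 in SJSA-1 cells (adjusted p = 3.1e-05 and 1.8e-10). For PLK1 in U2-OS cells it was -0.067 ± 0.12 and -0.23 ± 0.12, neither passing. In SJSA-1 cells CDC20 read 1510, 1898 and 1795 with DMSO, 1370, 1428 and 1438 at 25 nM, 1038, 1090 and 1003 at 100 nM and 996, 1235 and 885 at 400 nM. In U2-OS cells CDC20 read 1209, 1227 and 1239 with DMSO, 1159, 1261 and 1247 at 25 nM, 882, 969.8 and 1010 at 100 nM and 779.8, 809 and 795 at 400 nM. In all treated arrays at 100 and 400 nM it lay below DMSO, with changes of -0.72 and -0.74 in SJSA-1 cells and -0.36 and -0.61 in U2-OS cells. Of the 3 probe sets of CDC20, 2 passed as lower in each of these comparisons, and 1 passed as higher in SJSA-1 cells at 400 nM, at 0.23.

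**Figure D3:**
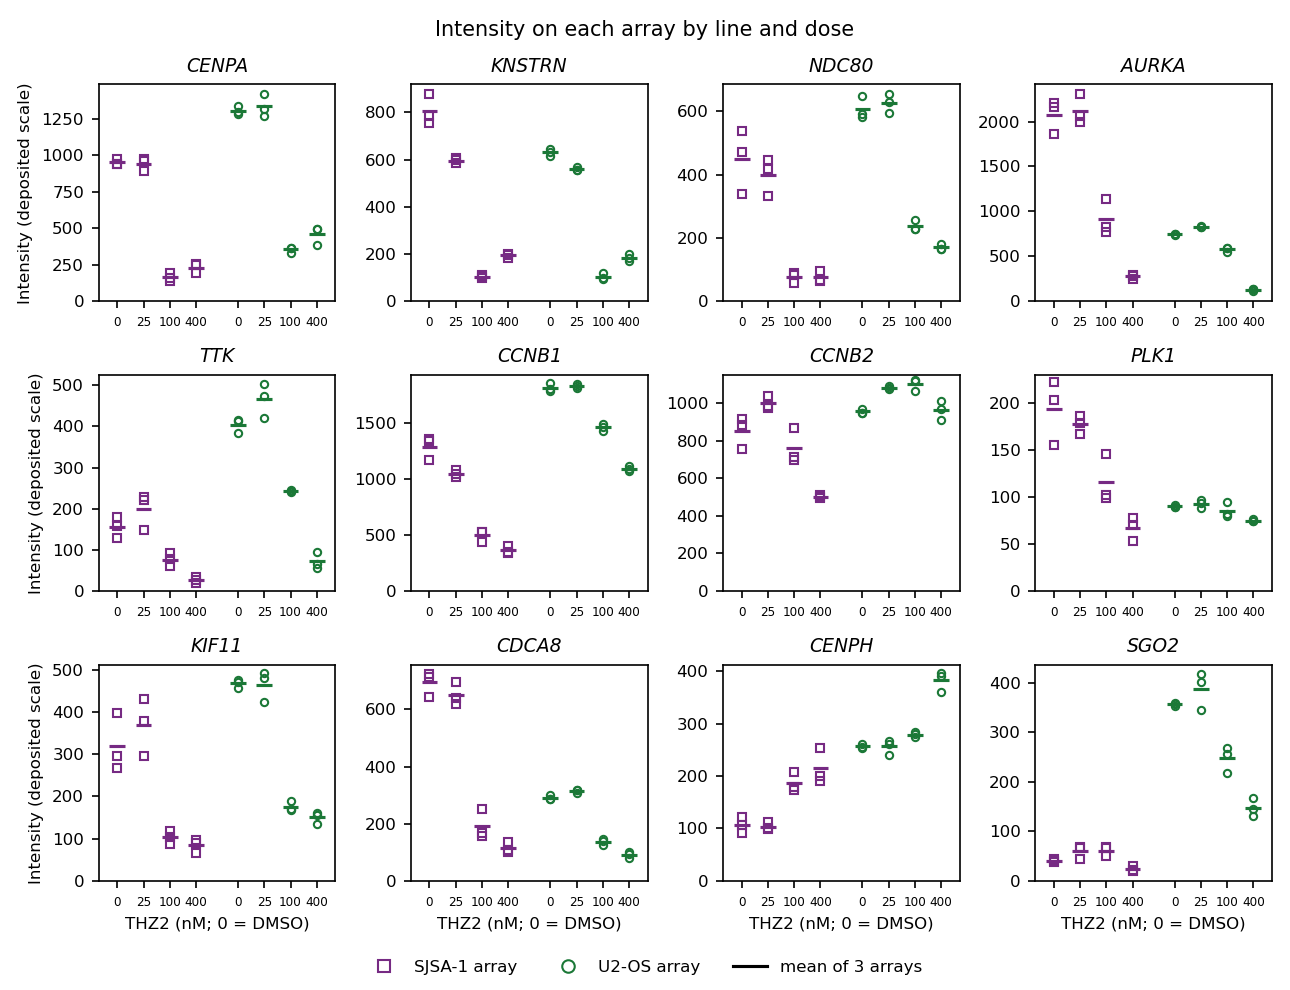
Deposited intensity of 12 of the genes on each of the 24 arrays, by dose of THZ2 (0 is DMSO), SJSA-1 to the left of U2-OS in each panel; points are arrays and bars the mean of 3. CENPA, KNSTRN and NDC80 dropped at 100 nM, AURKA and TTK were lower again at 400 nM, and CENPH was higher at 100 and 400 nM in SJSA-1 cells.

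The upstream regions of these genes are known to carry the sequence TTTGAA of the cell cycle genes homology region, bound by DREAM and MuvB complexes, and CCAAT boxes, bound by NF-Y. RefSeq windows of GRCh38.p14 from 250 bases before to 50 after the start were at hand for 42 of the 50 genes. TTTGAA, searched on both strands, lay in 27 of the 42, which is 64.3%, against 12.1% of all 15843 windows. CCAAT, also on both strands, lay in 34 or 81% of them, against 36.4%, and both motifs in 23 or 54.8%, against 5.02%. The E2F-like TTTNNCGC lay in 16.7% against 8.86%, and TATAAA in 7.14% against 9.63%. The starts of a cyclin that fell steeply in SJSA-1 cells, a cyclin that hardly moved in U2-OS cells, and the genes with the steepest falls at 100 nM are printed here 5′ to 3′, 150 bases before to 20 after the start. Capitals mark TTTGAA and, on either strand, CCAAT boxes.

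CCNB1, chr5:69167000-69167169 on the + strand: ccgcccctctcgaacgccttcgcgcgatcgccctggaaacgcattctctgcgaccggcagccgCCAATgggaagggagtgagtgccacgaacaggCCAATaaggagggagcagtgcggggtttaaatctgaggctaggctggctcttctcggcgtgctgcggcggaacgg
CCNB2, chr15:59104996-59105165 on the + strand: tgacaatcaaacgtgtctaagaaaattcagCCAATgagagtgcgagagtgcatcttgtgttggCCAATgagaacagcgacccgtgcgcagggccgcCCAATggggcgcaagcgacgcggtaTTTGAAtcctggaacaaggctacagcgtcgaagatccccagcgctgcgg
CENPA, chr2:26785906-26786075 on the + strand: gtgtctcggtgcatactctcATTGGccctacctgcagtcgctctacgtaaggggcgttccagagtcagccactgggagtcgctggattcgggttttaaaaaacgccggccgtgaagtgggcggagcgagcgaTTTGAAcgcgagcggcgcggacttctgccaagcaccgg
KNSTRN, chr15:40382571-40382740 on the + strand: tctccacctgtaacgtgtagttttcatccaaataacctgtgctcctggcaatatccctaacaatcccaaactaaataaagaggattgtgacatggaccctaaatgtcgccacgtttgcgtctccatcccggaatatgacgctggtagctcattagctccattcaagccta

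CCNB1 held 2 CCAAT boxes, at -87 and -55 from the start, and no TTTGAA in this stretch, CCNB2 held 3 CCAAT boxes, at -120, -87 and -54, with TTTGAA at -29, and CENPA held TTTGAA at -18 with a CCAAT box on the other strand at -130. KNSTRN, which fell most at 100 nM, held neither motif here. At 100 nM 16 of the 27 genes with TTTGAA fell in SJSA-1 cells and their median was -0.42, beside 11 of 15 without it and a median of -0.71. In U2-OS cells 12 of 27 with it fell with a median of -0.20, beside 13 of 15 and -0.61. For CCAAT 21 of 34 with it fell in SJSA-1 cells with a median of -0.61, beside 6 of 8 without and -0.92, and in U2-OS cells 19 of 34 with -0.35, beside 6 of 8 with -0.92. These are descriptions of letters in a window and no test was made of the difference.

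The kinesins were lower in both lines, with 8 of 8 lower in SJSA-1 cells at 100 nM and 7 at 400 nM, and none higher. In U2-OS cells 6 fell and none rose at 100 nM, and 6 fell and 2 rose at 400 nM. The falls are 100% and 87.5% of the genes in SJSA-1 cells, beside 24.9% of all genes at each dose. In U2-OS cells they are 75% at each dose, beside 22.1% and 24.8%. The 2 rises are 25%, beside 48.4% of all genes. The median of the 8 genes was -0.76 and -0.86 in SJSA-1 cells and -0.85 and -1.0 in U2-OS cells, below 0 with all 4 other scalings. KIF11 encodes the motor Eg5 that pushes spindle poles apart. In SJSA-1 cells KIF11 read 396, 267 and 296 with DMSO, 430.5, 296 and 377 at 25 nM, 87.4, 105 and 118 at 100 nM and 67.2, 89.3 and 97.7 at 400 nM. In U2-OS cells KIF11 read 476, 456 and 470.4 with DMSO, 423, 480.5 and 491 at 25 nM, 189.6, 171 and 167 at 100 nM and 134, 161 and 156 at 400 nM. The arrays at 100 and 400 nM lay clear of the DMSO arrays in each line, with changes of -1.48 ± 0.13 and -1.73 ± 0.13 in SJSA-1 cells (adjusted p = 2.3e-10 and 6.0e-12). For KIF11 in U2-OS cells they were -1.33 ± 0.13 and -1.54 ± 0.13 (adjusted p = 2.4e-09 and 5.2e-11).

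KIF14 is a kinesin of the midbody. In SJSA-1 cells KIF14 was dim, at 49.5, 42.5 and 38.9 with DMSO, 57.3, 30.3 and 43.4 at 25 nM, 16.2, 13.9 and 22.9 at 100 nM and 18.9, 23.4 and 27.5 at 400 nM. In U2-OS cells KIF14 read 144, 155 and 147 with DMSO, 124, 138 and 134 at 25 nM, 34.0, 44.7 and 41.2 at 100 nM and 79.2, 92.1 and 75.6 at 400 nM. The SJSA-1 arrays at both upper doses lay below DMSO, a change of -0.83 ± 0.12 and -0.60 ± 0.12. The 100 nM arrays of U2-OS cells were the lowest and the 400 nM arrays stood between them and DMSO, a change of -1.56 ± 0.12 and -0.75 ± 0.12. KIF18A, which dampens chromosome movements, fell, with a change of -1.23 in SJSA-1 cells at 100 nM and was at least 4.38-fold lower at 400 nM, where its mean lay under the filter's intensity, and in U2-OS cells it fell, with changes of -0.79 and -1.96. KIF20B, a midzone kinesin, read 13.1 in SJSA-1 cells with DMSO and was at least 1.08-fold lower there at both doses. In U2-OS cells its changes were -1.2 and -1.26, both passing. KIF2C, which encodes the microtubule depolymerase MCAK, fell, with changes of -1.04 and -0.86 in SJSA-1 cells and -0.92 and -0.72 in U2-OS cells.

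KIF20A is the kinesin MKLP2 that carries the passenger complex to the midzone. In SJSA-1 cells KIF20A read 523, 541 and 396 with DMSO, 458, 541 and 465 at 25 nM, 272, 352 and 258 at 100 nM and 284, 231 and 269 at 400 nM. In U2-OS cells KIF20A read 209, 217 and 213 with DMSO, 226, 246 and 248 at 25 nM, 172, 179 and 164 at 100 nM and 249.8, 269 and 259 at 400 nM. In SJSA-1 cells both upper doses lay below DMSO, while in U2-OS cells the 100 nM arrays lay below and the 400 nM arrays above the DMSO arrays. The change was -0.70 ± 0.11 and -0.85 ± 0.11 in SJSA-1 cells. For KIF20A in U2-OS cells it was -0.29 ± 0.11 and 0.26 ± 0.11. Both U2-OS calls were lost without any one of 5 of the 6 arrays, at -0.26 to -0.30 and at 0.24 to 0.28, and the rise turned to -0.049 with the spike-ins. KIF23, the kinesin of the centralspindlin complex, was -0.40 in SJSA-1 cells at 100 nM, where the groups overlapped. That call was lost without DMSO replicate 1 at -0.17, DMSO replicate 3 at -0.35, 100 nM replicate 1 at -0.36 or 100 nM replicate 2 at -0.36. At 400 nM it fell, with changes of -1.15 in SJSA-1 cells and -1.43 in U2-OS cells. KIF4A, the chromokinesin that sets midzone length, fell, with a change of -0.37 in SJSA-1 cells at 100 nM, a call lost with median centring at -0.19, and was 0.34 and higher in U2-OS cells at 400 nM, or 0.024 without passing with the spike-ins.

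Falls among the spindle assembly and cytokinesis genes at 100 nM lay near the share of all genes. Of 6, 2 fell in SJSA-1 cells at 100 nM and 3 at 400 nM, none rising, while in U2-OS cells 1 fell at 100 nM and 1 fell and 3 rose at 400 nM. Those 3 rises are 50% of the genes, close to the 48.4% of all genes that rose there. The falls at 100 nM are 33.3% of the genes in SJSA-1 cells and 16.7% in U2-OS cells, beside 24.9% and 22.1% of all genes. The median over the 6 was -0.14 and -0.29 in SJSA-1 cells and -0.013 and 0.35 in U2-OS cells, and at 100 nM it turned to 0.048 in SJSA-1 cells and 0.10 in U2-OS cells with median centring. ASPM focuses spindle poles. In SJSA-1 cells ASPM read 147, 85.0 and 89.3 with DMSO, 129, 65.8 and 122 at 25 nM, 17.5, 30.9 and 34.8 at 100 nM and 16.8, 22.8 and 27.5 at 400 nM. In U2-OS cells ASPM read 194, 205 and 210.1 with DMSO, 192, 215 and 202 at 25 nM, 63.7, 61.5 and 59.6 at 100 nM and 95, 109 and 112 at 400 nM. All arrays at both upper doses lay below DMSO in each line, with changes of -1.48 ± 0.17 and -1.66 ± 0.17 in SJSA-1 cells and -1.5 ± 0.17 and -0.86 ± 0.17 in U2-OS cells.

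TPX2 is the activator of Aurora A on spindle microtubules. In SJSA-1 cells TPX2 read 1082, 1075 and 861 with DMSO, 916, 1038 and 1046 at 25 nM, 572, 648 and 534 at 100 nM and 495, 458 and 584 at 400 nM. In U2-OS cells TPX2 read 664, 713 and 688 with DMSO, 704, 732 and 727 at 25 nM, 588, 690.1 and 656 at 100 nM and 609, 636 and 602 at 400 nM. SJSA-1 arrays at 100 and 400 nM lay below all others, and U2-OS arrays at 100 nM overlapped DMSO while those at 400 nM lay slightly below. The change was -0.76 ± 0.093 and -0.95 ± 0.093 in SJSA-1 cells (adjusted p = 7.5e-08 and 8.8e-10). For TPX2 in U2-OS cells it was -0.095 ± 0.093 and -0.16 ± 0.093, neither passing. PRC1, which bundles midzone microtubules, was -0.35 in SJSA-1 cells at 400 nM, a call lost with the mean of its probe sets at -0.18, and 0.41 in U2-OS cells. NUSAP1, a microtubule bundler, and ECT2, the exchange factor that starts the cleavage furrow, rose by 0.43 and 0.61 in U2-OS cells at 400 nM, but did not pass with the mean of their probe sets, at 0.19 and 0.18. With the spike-ins PRC1, NUSAP1 and ECT2 were 0.099, 0.12 and 0.30 there without passing. ANLN, the anillin of the contractile ring, was 0.28 and 0.063 in SJSA-1 cells and 0.087 and 0.30 in U2-OS cells, none passing. Of its 4 probe sets, 2 passed as higher in U2-OS cells at 400 nM, up to 0.62.

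TOP2A is the topoisomerase that untangles sister chromatids. In SJSA-1 cells TOP2A read 1209, 739 and 910.2 with DMSO, 1218, 976 and 1121 at 25 nM, 434, 502 and 617 at 100 nM and 246, 352 and 495 at 400 nM. In U2-OS cells TOP2A read 2292, 2276 and 2270 with DMSO, 2119, 2359 and 2413 at 25 nM, 1597, 1645 and 1609 at 100 nM and 1790, 1942 and 1946 at 400 nM. The arrays at both upper doses lay below DMSO in SJSA-1 cells, and in U2-OS cells the 100 nM arrays were lowest and the 400 nM arrays stood between them and DMSO. The change was -0.85 ± 0.16 and -1.38 ± 0.16 in SJSA-1 cells, -0.49 ± 0.16 in U2-OS cells at 100 nM, and -0.27 ± 0.16 at 400 nM there, not passing. Of the 3 probe sets of TOP2A, 2 passed as lower in that comparison, down to -1.36.

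With the deposited scaling some genes changed little between 100 and 400 nM in SJSA-1 cells, while others went on changing. At 100 against 25 nM 35 members were lower and 3 higher in SJSA-1 cells, beside 23% and 18.6% of all genes, and in U2-OS cells 28 were lower and 1 higher, beside 23.1% and 24.8%. At 400 against 100 nM 14 were lower and 6 higher in SJSA-1 cells, beside 11.6% and 14.8% of all genes, and the 6 were 4 without 100 nM replicate 1, 9 without 100 nM replicate 3 and 11 without 400 nM replicate 3. In U2-OS cells 15 were lower and 19 higher, beside 20.1% and 44.3%, where dose and normalization cannot be told apart. With the spike-ins the split in that step was 19 lower and none higher in SJSA-1 cells and 5 lower and 6 higher in U2-OS cells. Among all genes it was 2132 lower and 2 higher in SJSA-1 cells, and 771 lower and 1662 higher in U2-OS cells. AURKA fell, with changes of -1.66 between 100 and 400 nM in SJSA-1 cells and -2.08 in U2-OS cells, and TTK with changes of -1.13 and -1.58. NDC80 was -0.028 over the same step in SJSA-1 cells and KIF11 -0.25, neither passing. In U2-OS cells NDC80 was -1.30 at 100 nM and -1.75 at 400 nM against DMSO, with no overlap between the arrays of these doses. With the spike-ins the median of all genes over this step was -0.44 in SJSA-1 cells.

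The 6 genes that were higher at 400 than at 100 nM in SJSA-1 cells were KNSTRN, SPC24, CENPA, BUB1B, AURKB and SGO1. KNSTRN was 0.81 ± 0.083 in SJSA-1 cells and 0.75 ± 0.083 in U2-OS cells over this step. SPC24 was 0.57 ± 0.11 and 1.18 ± 0.11, CENPA 0.47 ± 0.10 and 0.35 ± 0.10, and AURKB 0.36 ± 0.11 and 0.42 ± 0.11, all passing. BUB1B was 0.37 ± 0.098 in SJSA-1 cells and 0.20 ± 0.098 in U2-OS cells, the second not passing, and SGO1 0.34 ± 0.081 and 0.071 ± 0.081, the second not passing. In SJSA-1 cells the call of BUB1B was lost without 100 nM replicate 1 at 0.29, and that of AURKB without 100 nM replicate 1 at 0.31 or 400 nM replicate 2 at 0.23. With the spike-ins none of the 6 passed in SJSA-1 cells: KNSTRN was 0.31, SPC24 0.071, CENPA -0.032, BUB1B -0.13, AURKB -0.14 and SGO1 -0.16. In U2-OS cells the CENPA step was lost with the spike-ins at 0.39 and with joint quantile normalization at 0.18, turned to -0.11 with the mean of its probe sets, and the AURKB step was lost with the spike-ins at 0.47.

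The change of a gene in one line went with its change in the other, over the 50 genes, with Pearson r of 0.43, 0.79 and 0.75 and Spearman rho of 0.44, 0.74 and 0.74 at 25, 100 and 400 nM. These describe points that share their DMSO arrays within a line. At 100 nM 25 genes fell in both lines, which is 80.6% of the members that fell in SJSA-1 cells and 89.3% of those in U2-OS cells, beside 66.9% and 75.6% for all genes that fell. At 400 nM it was 26 genes, 72.2% and 100% of the falls, beside 68.3% and 68.6%. Of the genes lower in both lines, the change was further below 0 in SJSA-1 cells for 18 of 25 at 100 nM and 14 of 26 at 400 nM, beside 1677 of 2701 and 1572 of 2747 of all genes.

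The difference of the changes, SJSA-1 minus U2-OS, was tested in the same model. None of the 50 passed at 25 nM, beside 0.884% of all genes lower and 0.192% higher, and 1 passed without SJSA-1 DMSO replicate 1. At 100 nM 14 were lower in SJSA-1 and 7 higher, beside 9.65% and 7.09% of all genes. None passed with the spike-ins, where 43 of all genes were lower and 12 higher. CCNB1, NDC80, AURKA, CDCA8 and TPX2 were then -1.12, -1.11, -0.918, -0.868 and -0.755, further from 0 than with the deposited scaling though not passing. SGO2, KIF14, ZWILCH, CENPH and CENPK were 0.845, 0.647, 0.606, 0.533 and 0.398, nearer to 0. At 400 nM 21 were lower and 8 higher, beside 31.3% and 14.4%, and 26 and 1 with the spike-ins, beside 5420 and 23 of all genes. CCNB1 differed by -1.03 ± 0.10 and -1.06 ± 0.10 at 100 and 400 nM (adjusted p = 3.1e-08 and 4.9e-09), and CDCA8 by -0.78 ± 0.17 and -0.93 ± 0.17. NDC80, AURKA and TPX2 differed by -1.02, -0.83 and -0.67 at 100 nM. KIF20A, TOP2A and PLK1 differed by -1.12, -1.11 and -1.10 at 400 nM, where TOP2A was -0.45 and did not pass with the mean of its probe sets.

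Among the differences in the other direction, KIF20B at both doses and CENPC at 400 nM passed with SJSA-1 means under the filter's intensity, so no size is given for them, and the ranking leaves them out. SGO2 differed by 0.93 ± 0.17 and 0.68 ± 0.17 at 100 and 400 nM, the second 0.52 and not passing with a pseudocount of 1. KIF14, ZWILCH and CENPH differed by 0.73, 0.69 and 0.62 at 100 nM, the first 0.60 with a pseudocount of 1 and 0.52 with the mean of its probe sets, neither passing. CENPK differed by 0.48 at 100 nM, lost without any one of 5 arrays at 0.36 to 0.47. At 400 nM MAD2L1 and CENPK differed by 0.72 and 0.51, and SGO1 and CENPE by 0.48 and 0.43. That of CENPE was lost without any one of 8 of the 12 arrays, at 0.36 to 0.44. With the spike-ins none of these 5 differences at 400 nM passed: SGO2 was 0.051, MAD2L1 0.094, CENPK -0.12, SGO1 -0.15 and CENPE -0.20.

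**Figure D4:**
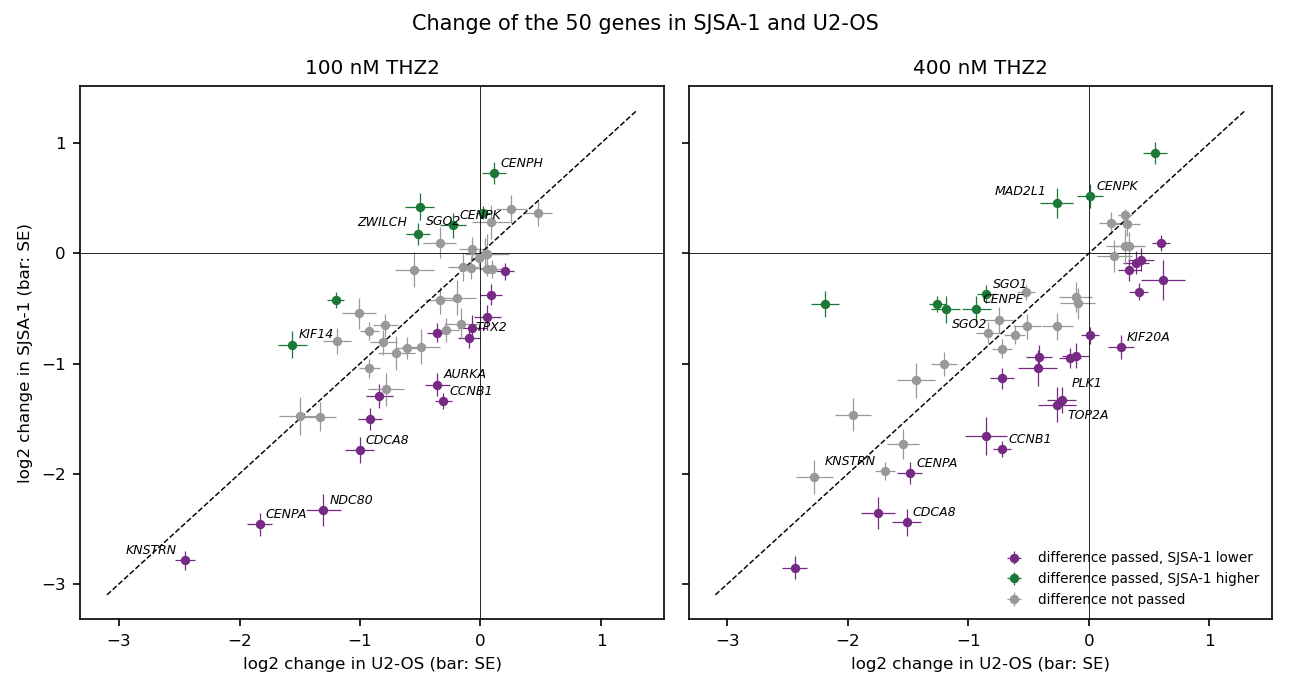
Log2 change of the 50 genes in SJSA-1 cells (vertical) against U2-OS cells (horizontal) at 100 and 400 nM, bars being standard errors and colour the call of the line difference. At 100 nM 14 genes lie lower in SJSA-1 cells and 7 higher by that test, and CCNB1, at -1.34 in SJSA-1 cells and -0.31 in U2-OS cells, is one of the points farthest from the diagonal. The points of KIF20B and CENPI at both doses, and of CENPC and KIF18A at 400 nM, rest on SJSA-1 means under the filter's intensity, as does CENPC at 100 nM through its DMSO mean.

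Several probe sets read 31 of the 50 genes. All probe sets of a gene passed as lower for 10 and 15 of the 31 in SJSA-1 cells at 100 and 400 nM, and for 13 and 12 in U2-OS cells. Probe sets of 1 gene passed in opposite directions for 1 and 2 genes in SJSA-1 cells and for 1 and 3 in U2-OS cells, and were lower in part and not passing in part for 8 and 7, and for 4 and 5. The same counts over all genes are not given here, so whether those of the members are unusual cannot be told.

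Other genes of the same pathways, from lists of genes that are not among the 50, changed in both directions. At 100 nM the share lower in the 6 lists ran between 23.5%, for condensin and cohesin, and 61%, for spindle and centrosome genes, in SJSA-1 cells, beside 24.9% of all genes. In U2-OS cells it ran between 38.5% and 52.6%, beside 22.1%. At 400 nM it ran between 40% and 63.4% in SJSA-1 cells and between 30.8% and 45% in U2-OS cells, beside 24.9% and 24.8%. The share higher in SJSA-1 cells ran between 7.5% and 20% at 100 nM, beside 24.5% of all genes. At 400 nM it ran between 0% and 32%, beside 41.6%. In U2-OS cells the share higher ran between 0% and 10.5% at 100 nM, beside 19.8%, and between 31.7% and 53.8% at 400 nM, beside 48.4%. Of 25 other kinetochore genes, 14 fell and 5 rose at 100 nM and 10 and 8 at 400 nM in SJSA-1 cells, and 12 and 2, then 10 and 8, in U2-OS cells. HJURP, the chaperone that loads CENP-A, was -2.18 and -3.41 in SJSA-1 cells and -1.02 and -2.52 in U2-OS cells at 100 and 400 nM. DSN1, a subunit of the Mis12 complex, was -1.80 and -1.27 in SJSA-1 cells and -1.02 and -1.75 in U2-OS cells. SPDL1, which recruits dynein, was -1.78 and -1.02 in SJSA-1 cells and -1.36 and -1.05 in U2-OS cells, and all of these passed. ITGB3BP, which encodes CENP-R, was 0.48 and 0.64 in SJSA-1 cells, passing. Of 41 other spindle and centrosome genes, 25 fell and 4 rose at 100 nM and 26 and 5 at 400 nM in SJSA-1 cells, and 20 and 3, then 17 and 13, in U2-OS cells. TUBGCP3, a subunit of the gamma-tubulin ring, was -1.81 and -0.94 in SJSA-1 cells and -2.58 and -0.90 in U2-OS cells. KIF2A, a depolymerising kinesin, was -1.22 and -1.53 in SJSA-1 cells and -1.91 and -1.64 in U2-OS cells, and all of these passed. NEK7, a centrosomal kinase, was 0.67 and 0.61 in SJSA-1 cells and 0.93 in U2-OS cells at 400 nM, passing.

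Of 19 genes of the anaphase-promoting complex and its regulators, 11 fell and 2 rose at 100 nM and 8 and 5 at 400 nM in SJSA-1 cells, and 10 and 2, then 6 and 7, in U2-OS cells. FBXO5, which encodes its inhibitor EMI1, was -1.01 and -3.75 in SJSA-1 cells and -0.50 and -2.68 in U2-OS cells, all passing. ESPL1, which encodes separase, fell, with changes of -1.64 and -1.39 in SJSA-1 cells and -0.55 in U2-OS cells at 100 nM. ANAPC15, a subunit that helps free it from the checkpoint, was 0.34 and 0.45 in SJSA-1 cells and 0.26 and 1.0 in U2-OS cells, all passing as rises. Of 17 condensin and cohesin genes, 4 fell and 3 rose at 100 nM and 7 and 0 at 400 nM in SJSA-1 cells, and 7 and 1, then 7 and 6, in U2-OS cells. NCAPH, a condensin subunit, was -1.85 and -1.67 in SJSA-1 cells and -0.97 and -1.70 in U2-OS cells. CDCA5, which encodes sororin, was -0.62 and -1.65 in SJSA-1 cells and -0.49 and -1.58 in U2-OS cells. WAPL, which releases cohesin, was -0.83 and -1.19 in SJSA-1 cells and -0.89 and -1.83 in U2-OS cells, and all of these passed. SMC2, a core condensin subunit, was 0.46 in SJSA-1 cells at 100 nM and 0.47 in U2-OS cells at 400 nM, both passing.

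Of 13 genes of the DREAM, B-MYB and FOXM1 regulators, 5 fell and 1 rose at 100 nM and 6 and 2 at 400 nM in SJSA-1 cells, and 5 and 0, then 4 and 7, in U2-OS cells. E2F5, a repressive E2F, was -2.38 and -0.95 in SJSA-1 cells and -1.30 and -0.58 in U2-OS cells. LIN37, a subunit of the MuvB core, was -1.26 and -1.23 in SJSA-1 cells and -1.13 and -0.69 in U2-OS cells, and all of these passed. TFDP2, a dimer partner of E2F proteins, was 0.21 and 0.24 in SJSA-1 cells and 0.78 in U2-OS cells at 400 nM, passing as rises. Of 40 DNA replication genes, 20 fell and 3 rose at 100 nM and 18 and 6 at 400 nM in SJSA-1 cells, and 20 and 3, then 18 and 13, in U2-OS cells. CDC6, which loads the replicative helicase, was -2.29 and -1.90 in SJSA-1 cells and -1.46 and -2.62 in U2-OS cells. RFC4, a clamp loader subunit, was -2.18 and -2.29 in SJSA-1 cells and -1.47 and -1.96 in U2-OS cells. ORC5, an origin recognition subunit, was -1.94 and -1.47 in SJSA-1 cells and -2.06 and -2.43 in U2-OS cells, and all of these passed. MCM5, a helicase subunit, was 0.44 and 0.28 in SJSA-1 cells, passing as rises. The medians at 100 nM were -0.34, -0.45, -0.27, -0.039, -0.076 and -0.17 for these 6 lists in the order given in SJSA-1 cells, and -0.21, -0.26, -0.21, -0.22, -0.17 and -0.20 in U2-OS cells, beside -0.61 and -0.35 for the 50 genes. With the spike-ins no gene of the 6 lists rose at 100 nM in either line, where 55 of all genes rose in SJSA-1 cells and 47 in U2-OS cells. With median centring the condensin and cohesin, DREAM and replication medians turned to 0.14, 0.11 and 0.016 in SJSA-1 cells.

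**Figure D5:**
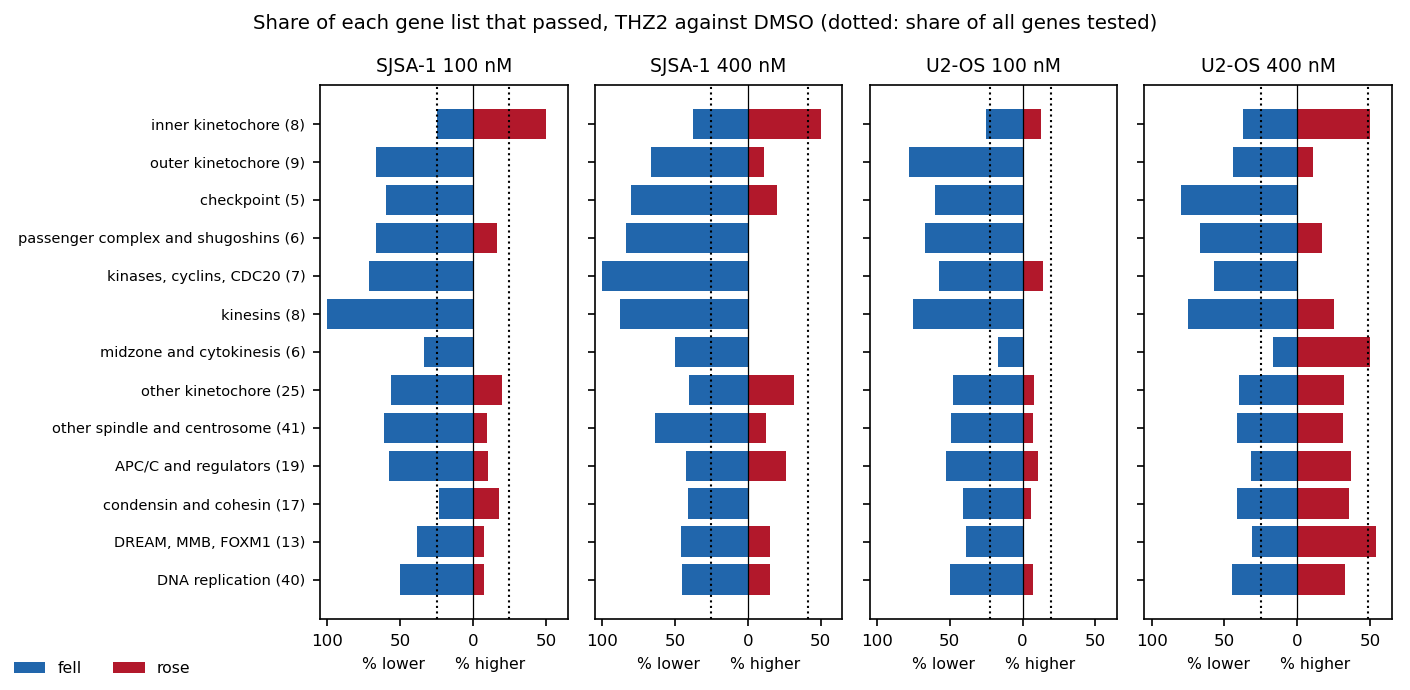
Share of each gene list (rows) that was lower or higher in each comparison with DMSO, with dotted lines at the share of all genes tested, SJSA-1 to the left of U2-OS. The kinesins were lower in 8 of 8 genes and the 6 other lists in smaller shares in SJSA-1 cells at 100 nM. Among these kinesins KIF20B lay near or under the filter's intensity, and the calls of KIF23 and KIF4A were lost with median centring.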

How the data were processed

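RNA of 24 cultures or repeats, 8 groups of 3, was read on Affymetrix PrimeView arrays. For each probe set and array the authors deposited an intensity, which is linear and not a logarithm. MAS5 and RMA are named in the submitters' processing notes, and which of them made these values is not given in the sources used here. The treatment protocol in the labels names TRIzol for these cells, while the extraction protocol names another tissue and another kit, and which of them was used is not known. Identical values were shared by pairs of arrays within 3 sets of arrays (U2-OS cells at DMSO to 100 nM, U2-OS cells at 400 nM, SJSA-1 cells; 0.853% to 5.47% of probe sets) and hardly at all between sets (at most 0.00405%), so the sets were taken as normalized apart.

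From these values log2(intensity + 16) was computed, so changes of dim genes are understated. A gene was read from its brightest single-gene probe set, with symbols from the platform annotation. Genes with no group mean at or above the 30th percentile of all values, 12.73, were left out, which kept 16173 of 18132. With limma 3.58.1 (R 4.3.3), 8 group means were estimated over the 24 arrays, leaving 16 residual degrees of freedom. Variances were moderated by empirical Bayes along the mean intensity, giving 14 contrasts with Benjamini-Hochberg adjusted p-values and a threshold of 0.05. An exact permutation test of 3 against 3 arrays cannot go below a two-sided p of 0.1, so the model was used. Where a group mean lay under 12.73, a lower bound of the fold was taken with the dim arrays raised to 12.73. Arrays give no read depth, and their number limits the precision. Tested on simulated data for SJSA-1 cells at 100 nM over 16173 genes, the model recovered 100 of 100 genes changed by 1 and 88 of 100 changed by 0.5 on the log2 scale, with 8 false calls.

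The members and lists were chosen with earlier results of these data known. Every member may be named, and values by array are given for fixed genes and for the 5 largest falls and 2 largest rises at 100 nM per line. For line differences the 5 largest in each direction per dose are given, among members at or above the filter's intensity in all 4 groups, and from each other list up to 3 genes in its more frequent direction and 1 in the other. Same-numbered arrays deviated together in 1 of 12 pairs of groups (correlations between -0.635 and 0.419), so the numbers were not taken as pairs. Alternatives were 4 other scalings, 2 other pseudocounts, 2 other filters, all probe sets of a gene, no intensity trend, only the compared groups, a replicate block and leaving out each array. Some genes of the other lists were not analysed here.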

Additional observations from a re-analysis of the deposited data

Results flagged for a closer look

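The response of 14 members was lower and of 7 higher in SJSA-1 than in U2-OS cells at 100 nM, and of 21 and 8 at 400 nM, by the model's test of the difference itself, as SJSA-1 minus U2-OS in log2 units. The 5 largest in each direction per dose are given here, among members at or above the filter's intensity of 12.73 in all 4 groups, which leaves out KIF20B at both doses and CENPC at 400 nM. At 100 nM the differences with a lower change in SJSA-1 cells were CCNB1 at -1.03, NDC80 at -1.02, AURKA at -0.83, CDCA8 at -0.78 and TPX2 at -0.67. Those with a higher change in SJSA-1 cells were SGO2 at 0.93, KIF14 at 0.73, ZWILCH at 0.69, CENPH at 0.62 and CENPK at 0.48. At 400 nM they were KIF20A at -1.12, TOP2A at -1.11, PLK1 at -1.10, CCNB1 at -1.06 and CDCA8 at -0.93, and in the other direction MAD2L1 at 0.72, SGO2 at 0.68, CENPK at 0.51, SGO1 at 0.48 and CENPE at 0.43. The U2-OS arrays with 400 nM were taken as normalized apart from their DMSO arrays, so at 400 nM the difference between the lines and that of normalization cannot be told apart. Whichever single array was left out, 18 of the 20 differences passed, CENPK at 100 nM and CENPE at 400 nM being the exceptions, and with the spike-ins 5 of the 20 passed in the same direction.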

How the results depend on the processing

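Of 153 passing changes of single members against DMSO, 153 passed in the same direction with either other filter or the replicate block, 151 with a pseudocount of 1 or of 64 and without the intensity trend, 145 with centring on ribosomal protein genes or joint quantile normalization, 143 with median centring, 142 in fits of the compared groups alone, 137 with the mean of probe sets and 119 with the spike-ins. The block changed no count of calls by over 1.5 times, and of the single results only the line difference of CENPE at 400 nM, 0.43, lost its call. Leaving out 1 array kept the call in 849 cases, lost it in 69 and reversed none.

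With the spike-ins no member rose at 100 or 400 nM in either line or at 25 nM in SJSA-1 cells, where 0 fell and 0 passed. Of all genes 5 fell and 2 rose at 25 nM in SJSA-1 cells with that scaling. That scaling left 11 members passing between 400 and 100 nM in U2-OS cells and 0 line differences at 100 nM, where 43 of all genes were lower and 12 higher. It reversed CCNB2 at -0.16 in U2-OS cells at 100 nM, and CENPN at -0.013 and KIF20A at -0.049 at 400 nM. In SJSA-1 cells it reversed CENPC at -0.081, CENPN at -0.074, CENPU at -0.042 and SGO2 at -0.019 at 100 nM, and CENPH at -0.030, CENPK at -0.43, CENPM at -0.68, CENPN at -0.60, ZWILCH at -0.67 and MAD2L1 at -0.49 at 400 nM. It also reversed the 400 against 100 nM steps of CENPA at -0.032, BUB1B at -0.13, AURKB at -0.14 and SGO1 at -0.16 in SJSA-1 cells, and the line differences of CENPK at -0.12, SGO1 at -0.15 and CENPE at -0.20 at 400 nM. The mean of probe sets reversed CENPN at -0.15 in U2-OS cells at 400 nM and at -0.16, -0.35 and -0.17 in SJSA-1 cells at 25, 100 and 400 nM, and the CENPA step in U2-OS cells at -0.11. The cause was not tested.

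Rises at 100 nM in U2-OS cells numbered 7 with median centring, 1 with ribosomal centring or a pseudocount of 1, 4 with the compared groups alone, and 1 to 2 without 1 array. In SJSA-1 cells at 100 nM they were 9 with median centring, 3 with the mean of probe sets, 1 with each probe set by itself and 3 to 8 without 1 array, and at 400 nM in U2-OS cells 7 with each probe set. At 25 nM in SJSA-1 cells, 3 members passed with the mean of probe sets (3 fell, 0 rose), 2 with the compared groups alone (2 fell, 0 rose) and 4 with each probe set (0 rose). Rises there were 1 with ribosomal centring, 4 with quantile normalization and 0 with a pseudocount of 64, and without 1 array 3 to 9 passed, 3 to 6 fell and 0 to 3 rose. At 25 nM in U2-OS cells 3 passed with the compared groups alone (1 fell, 2 rose). Line differences at 25 nM numbered 0 to 1 without 1 array. Genes near the filter's intensity in SJSA-1 cells (CENPC, CENPI, KIF18A, KIF20B) have bounds in place of folds.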
